A study of Mus musculus with 6 samples.

Results

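HT22 cells, an immortalized mouse hippocampal neuronal line, were compared without aluminum (control) and after 24 h with 120 µM aluminum maltolate (Al), with 3 input libraries in each group. The genes described are 39 of the 21878 genes in the deposited table, chosen by name: the pumps, exchangers and channels that carry calcium across the plasma membrane, the endoplasmic reticulum (ER), the Golgi and the mitochondria, and 2 calmodulin genes. The deposited labels call the samples C and M and give a dose range, and M was taken as the Al group because the study's tables give the same comparison under either name. The methods list cells in medium alone and maltol-treated cells as controls, and which of them was sequenced is not stated. All 6 libraries come from a single cell line and carry RNA that was fragmented but not enriched for m6A.

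Resting cells keep cytosolic calcium low by pumping it out of the cell and into the ER and Golgi, while exchangers trade it against sodium. Signals release it from the ER through inositol trisphosphate (IP3) and ryanodine receptors, and the emptied ER is sensed by STIM proteins, which open ORAI channels in the plasma membrane. Mitochondria take calcium up through the uniporter and return it through exchangers, and calmodulin passes the calcium signal on to kinases, phosphatases and the pumps themselves.

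Levels are given as scaled FPKM, the deposited FPKM (fragments normalised to transcript length and library total) divided by a size factor for each library. To be called, a gene needed an unadjusted P under 0.05 and a log2 difference beyond 0.58 in either direction. Adjusted P values are from limma with Benjamini-Hochberg adjustment over all tested genes. The reads recovered from the FPKM values numbered 37902258 to 44374043 in the control libraries and 21047132 to 26572484 in the Al libraries, so depth and treatment cannot be told apart. Of 12 neuronal marker genes, Tubb3 alone had a mean of at least 1 FPKM, and Nefm and Snap25 were at 0 in all libraries. All 6 fibroblast or mesenchymal markers had a mean of at least 1 FPKM, with a summed level of 2113 to 3406 scaled FPKM in control and 3687 to 5231 in Al. Of that list, Col1a1 and Thy1 were called higher and Dcn lower. The astrocyte markers summed to 11.9 to 19.5 in control and 1.92 to 2.82 in Al, with Slc1a3, the only one with a mean of at least 1 FPKM, called lower and Aqp4 at 0 in all libraries. The endothelial markers summed to at most 0.139 in control and 0.396 to 0.462 in Al, with Pecam1 called higher on 0 to 27 reads per library. Microglial markers summed to 33.5 to 41.3 in control and 23.8 to 90.5 in Al, nearly all of it Tmem119, which was not called, while Cx3cr1 was called higher at levels near or under 1 and P2ry12 was at 0 in all libraries. No oligodendrocyte marker was called, and that list summed to 0.164 to 0.260 in control and 0.227 to 0.838 in Al. The part of such differences in the results was not tested, and fewer cells of a kind and less RNA per cell cannot be told apart in bulk RNA.

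Among the 30 calcium genes expressed well enough to test, 15 fell and 4 rose with Al, while 11 were not called. The 4 rises include Slc8a2, which met the minimum mean of 0.1 FPKM only through the Al group. Cacna1g, not called, met it only through control, and the other 28 met it in both groups. Of all 12889 genes tested, 50.6% were called, 26.2% higher and 24.4% lower. Lower calls thus took 50% of the calcium genes tested, and higher calls 13.3%. All 19 calls also had an adjusted P under 0.05, where 49.2% of all genes tested met both conditions. An adjusted P under 0.05 alone was reached by 22 of the 30, against 62.1% of all genes tested. The median log2 fold change was -0.68 over these 30 genes, against 0.03 over all genes tested. The groups did not overlap in 23 of the 30 genes (76.7%), a share to be read beside 68.1% of all genes tested. Falls were found at the plasma membrane (6 of 10 tested), in the ER (4 of 9), in the Golgi (1 of 1) and in mitochondria (4 of 8). Each of these sites except the Golgi also held 1 rise, and the remaining rise was in calmodulin.

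**Figure D1:**
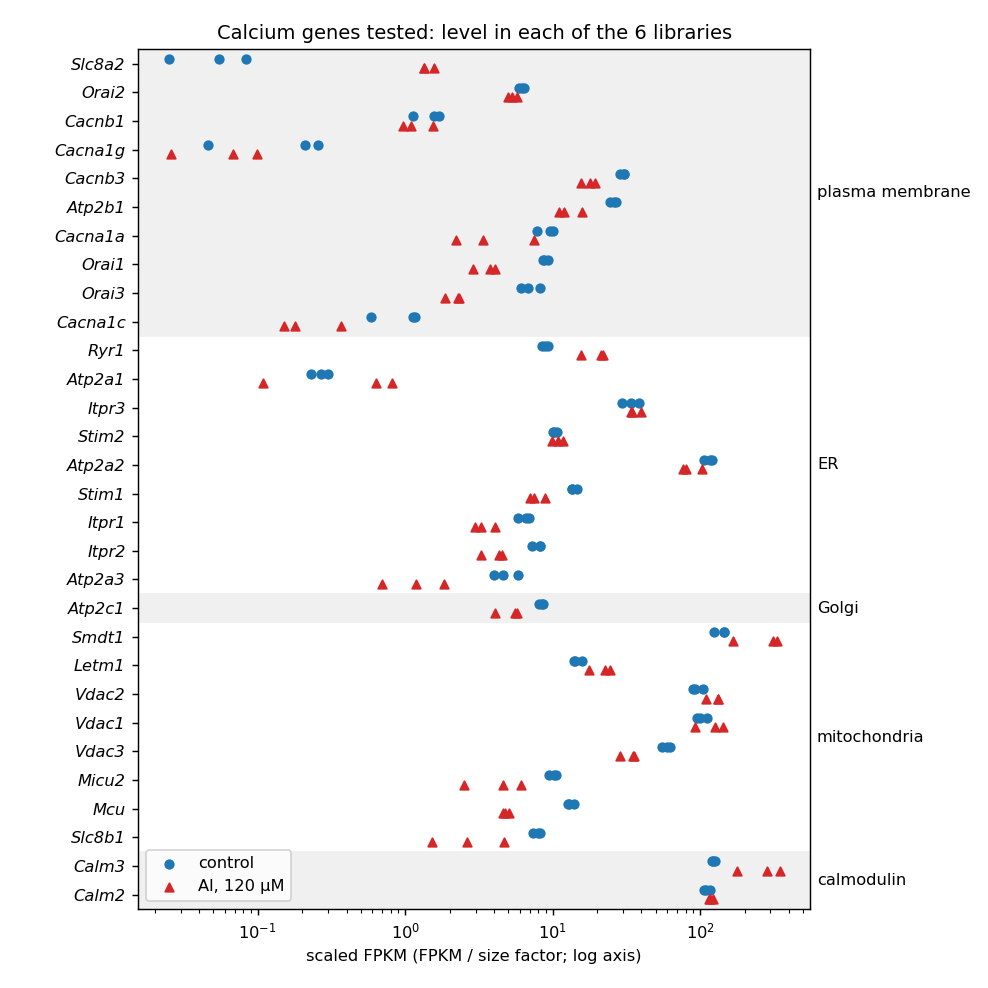
Scaled FPKM (log axis) of the 30 calcium genes tested, by site, with 1 point for each of the 3 control and 3 Al libraries. Control and Al points are apart for 23 genes, and Slc8a2 shows the widest gap.

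**Figure D2:**
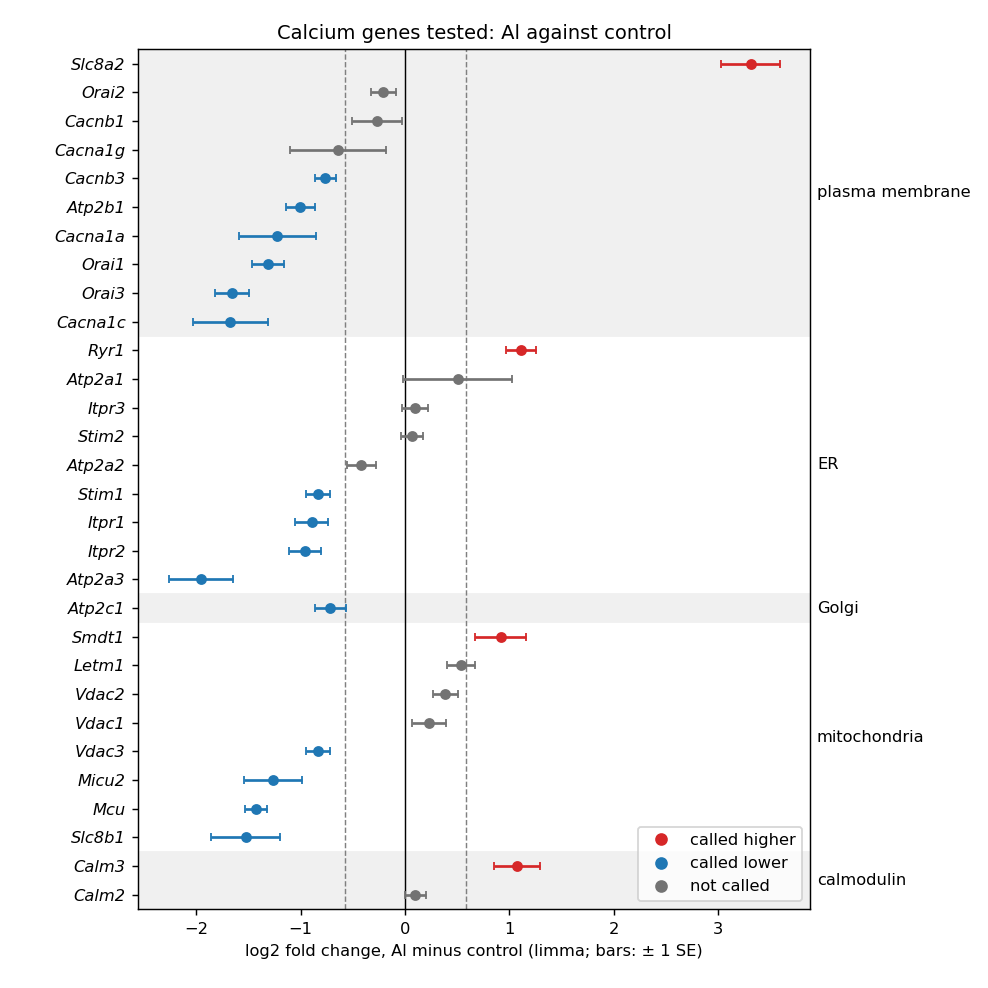
Log2 fold change, Al minus control, of the same 30 genes with bars of 1 standard error from limma and dashed lines at 0.58 in either direction. The 15 genes called lower lie to the left, and the 4 called higher are Slc8a2, Ryr1, Smdt1 and Calm3.

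At the plasma membrane, the 1 pump tested fell, as did 5 of the 8 channel genes tested, while 1 exchanger rose. Atp2b1, the widely expressed plasma membrane calcium ATPase, was at 27.0, 25.9 and 24.5 scaled FPKM in control and 11.1, 11.9 and 15.9 in Al. Every Al library lay below every control library. The control mean was 1.99-fold higher, a log2 difference of -1.004 ± 0.14 (SE, adjusted P = 0.000351). Its relatives Atp2b2, Atp2b3 and Atp2b4 stayed below the level tested.

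The ORAI proteins form the store-operated calcium channel. Orai1 was at 8.65, 9.33 and 8.77 scaled FPKM in control and 2.87, 3.74 and 4.08 in Al. For Orai3, control libraries held 8.18, 6.76 and 6.06, and Al libraries 2.27, 1.86 and 2.31. Both genes were lower in each Al library, with log2 fold changes of -1.31 ± 0.15 for Orai1 (adjusted P = 0.000121) and -1.65 ± 0.16 for Orai3 (adjusted P = 5.48e-05). Orai2 was at 5.92, 6.43 and 6.20 in control against 5.31, 4.97 and 5.76 in Al. Its groups did not overlap, but the log2 difference of -0.21 ± 0.12 was not called (adjusted P = 0.155). Orai2 was called lower in FPKM as deposited (-0.69) and in TPM (-0.98), where the medians of all genes tested were -0.43 and -0.72. Summed over the 3 ORAI genes, the level was 22.1 ± 0.938 in control and 11.1 ± 0.953 in Al (SD, n = 3 each, exact two-sided permutation P = 0.1, the smallest that 3 against 3 can give).

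Voltage-gated calcium channels open on depolarization. Cacna1a, the pore of P/Q-type channels, was at 9.63, 10.1 and 7.77 scaled FPKM in control and 7.52, 3.35 and 2.22 in Al. The first Al library lay just under the lowest control library and the other two well below it. Its log2 fold change was -1.23 ± 0.37 (adjusted P = 0.0177). Cacna1c, an L-type pore, was at 1.13, 1.16 and 0.588 in control and 0.367, 0.150 and 0.180 in Al. Each Al library was lower (43 to 126 reads), and the fold change on the log2 scale was -1.68 ± 0.36 (adjusted P = 0.00353). Over the alternatives it ran from -2.30 to -0.66, with the call kept wherever Cacna1c was tested. Cacnb3, a beta subunit that brings pores to the membrane, was at 30.5, 28.7 and 30.5 in control and 19.3, 15.7 and 18.0 in Al. The groups were apart, with a log2 fold change of -0.76 ± 0.10 (adjusted P = 0.000318). Cacnb1, another beta subunit, was at 1.69, 1.57 and 1.13 in control and 1.09, 0.966 and 1.54 in Al, and these ranges overlapped. It was not called (log2 difference -0.27), but it was called lower in FPKM as deposited (-0.72) and in TPM (-0.997). The T-type pore Cacna1g had 0.255, 0.208 and 0.0463 in control against 0.0991, 0.0680 and 0.0256 in Al. Its groups overlapped at 5 to 114 reads per library, it met the minimum mean only through the control group, and it was not called. Cacna1a and Cacnb3 lost their calls when values were centred by gene length (log2 fold changes of -0.87 and -0.57), and Cacnb3 also when centred by GC content (-0.35).

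The widest change among these genes was in a sodium-calcium exchanger. Slc8a2 was at 0.0547, 0.0830 and 0.0250 scaled FPKM in control and 1.34, 1.56 and 1.35 in Al. These levels rest on 9 to 30 reads in a control library and 183 to 197 reads in an Al library. All Al libraries were far above all control libraries, and the mean was 26.1-fold higher. The fitted log2 fold change, which the pseudocount of 0.1 shrinks, was 3.31 ± 0.28 (adjusted P = 2.85e-05). It was 1.19 with a pseudocount of 1 and 4.78 by voom on recovered reads, the lowest and highest of the alternatives. Slc8a2 met the minimum mean of 0.1 FPKM only through the Al group (control mean 0.0648 FPKM as deposited), so a gene at this level could be tested only if it was high in a group, and its call is given as a description. Of the other plasma membrane exchangers, Slc8a1 had a single read in 1 Al library and Slc8a3 had 0 to 5 reads in each library.

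In the ER, 4 genes fell: a minor pump, the 2 less abundant IP3 receptors and the store sensor Stim1, the more abundant sensor in control but not in Al. The main pump, the main IP3 receptor and the second sensor, Stim2, were not called. Atp2a2 is the housekeeping ER calcium pump and by far the most abundant form here. It was at 117.5, 106 and 120 scaled FPKM in control and 76.1, 79.6 and 103 in Al. The groups were narrowly apart, and the log2 difference of -0.42 ± 0.14 (adjusted P = 0.0251) was too small to be called. It was called lower under quantile normalization (-0.99), in FPKM as deposited (-0.91) and in TPM (-1.20). Atp2a3, a form with lower calcium affinity, was at 3.99, 4.61 and 5.83 in control and 1.83, 1.18 and 0.694 in Al. Each Al library was lower, with a log2 fold change of -1.95 ± 0.31 (adjusted P = 0.000678), the largest fall among the 30 genes on this scale. By the ratio of group means Cacna1c fell further, 4.13-fold against 3.90-fold for Atp2a3. Atp2a1, the fast-muscle form, was at 0.230, 0.269 and 0.297 in control and 0.108, 0.809 and 0.629 in Al. The first Al library lay below control and the others above, and without that library the gene was called higher (log2 fold change 1.17).

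Release channels moved in different directions. Itpr1, the IP3 receptor typical of neurons, was at 6.96, 6.58 and 5.79 scaled FPKM in control and 2.97, 3.26 and 4.09 in Al. Itpr2 was at 8.21, 7.21 and 8.19 in control and 3.26, 4.33 and 4.50 in Al. Both fell without overlap, by log2 fold changes of -0.89 ± 0.16 (adjusted P = 0.00114) and -0.96 ± 0.15 (adjusted P = 0.000694). Itpr3, the most abundant of the family in these cells, was at 33.8, 29.5 and 38.7 in control and 34.5, 40.0 and 33.9 in Al. These ranges overlapped, and the log2 difference of 0.09 ± 0.12 changed sign without the second control library (-0.02). The 3 receptors summed to 48.3 ± 4.76 in control and 43.6 ± 3.54 in Al (SD, n = 3 each, exact two-sided permutation P = 0.2). Itpr1 lost its call when values were centred by gene length (log2 fold change -0.54).

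Ryr1, the ryanodine receptor known from skeletal muscle, rose. It was at 8.88, 8.49 and 9.35 scaled FPKM in control and 21.3, 21.8 and 15.6 in Al. Every Al library was above every control library, and the log2 difference was 1.11 ± 0.14 (adjusted P = 0.000209) on 4808 to 7677 reads per library. In TPM, Ryr1 was not called (0.33). Ryr2 had 0 to 2 reads in each library and Ryr3 13 to 79, and neither was tested. Among 5 muscle markers, Des alone had a mean of at least 1 FPKM, and the list summed to 3.82 to 4.002 scaled FPKM in control and 1.73 to 3.11 in Al. Des was called lower and Ckm, under 1 FPKM, higher (log2 differences of -1.03 and 1.71), and their part in the rise of Ryr1 was not tested.

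The store sensor Stim1 was at 14.6, 13.5 and 13.5 scaled FPKM in control and 7.48, 7.02 and 8.83 in Al. All Al libraries were lower, with a log2 fold change of -0.83 ± 0.12 (adjusted P = 0.000360). Stim2, which responds to smaller losses of ER calcium, was at 10.6, 10.001 and 10.2 in control and 10.9, 11.7 and 9.89 in Al. Its groups overlapped, and it was not called (0.07 ± 0.11, adjusted P = 0.587). Stim2 over Stim1 was thus 0.742 ± 0.0144 in control and 1.41 ± 0.276 in Al (SD, n = 3 each, exact two-sided permutation P = 0.1). In the Golgi, the calcium and manganese pump Atp2c1 was at 8.45, 8.07 and 8.60 in control and 4.07, 5.52 and 5.74 in Al. It fell without overlap by a log2 fold change of -0.72 ± 0.15 (adjusted P = 0.00295). That call was lost without the first Al library (-0.56), under quantile normalization (-0.52) and when centred by gene length (-0.48).

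In mitochondria, the uniporter's pore and gatekeeper fell while its linker rose. Mcu, the pore, was at 12.9, 12.6 and 13.9 scaled FPKM in control and 4.63, 4.74 and 5.08 in Al. The groups were tight and far apart, with a log2 fold change of -1.43 ± 0.11 (adjusted P = 1.71e-05). Micu2, which holds the pore shut at low calcium, was at 9.45, 10.5 and 10.2 in control and 4.59, 6.09 and 2.49 in Al. It was lower in each Al library, with a log2 fold change of -1.26 ± 0.27 (adjusted P = 0.00375). Smdt1 encodes EMRE, the small protein that couples the gatekeepers to the pore. It was at 124, 144 and 145 in control and 332, 310 and 168 in Al. All Al libraries were higher, but the third far less so than the other two. The log2 fold change was 0.92 ± 0.24 (adjusted P = 0.0103). It was not called in FPKM as deposited (0.43), in TPM (0.13), under quantile normalization (0.22) or with deviations centred by gene length (0.49). Smdt1 over Mcu was 9.58, 11.4 and 10.4 in control and 71.8, 65.4 and 33.1 in Al, a ratio that a single scaling factor per library leaves as it is (exact two-sided permutation P = 0.1).

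Of the mitochondrial exchangers and outer membrane channels, Slc8b1 and Vdac3 fell and the other three genes were not called. Slc8b1, the mitochondrial sodium-calcium exchanger, was at 8.27, 7.90 and 7.40 scaled FPKM in control and 1.51, 2.63 and 4.68 in Al. Each Al library was lower, although they differed widely among themselves, and the log2 fold change was -1.53 ± 0.33 (adjusted P = 0.00373). Letm1, an inner membrane cation exchanger, was at 14.3, 14.01 and 15.7 in control and 22.5, 24.5 and 17.6 in Al. The groups were apart, but 0.54 ± 0.13 (adjusted P = 0.00709) was too small to be called. Letm1 was called higher without the third Al library (0.69), centred by gene length (0.77) or GC content (0.68), and with deviations centred by length (0.64). The outer membrane channels split. Vdac3 was at 54.9, 59.4 and 62.2 in control and 35.2, 35.7 and 28.4 in Al, lower in each Al library, with a log2 fold change of -0.83 ± 0.12 (adjusted P = 0.000358) that was not called when centred by GC content (-0.56). Vdac1 was at 94.6, 99.3 and 110.5 in control and 126, 143 and 92.4 in Al. Vdac2 was at 90.2, 92.3 and 104 in control and 132, 133 and 110 in Al, without overlap. Neither was called, at 0.23 ± 0.17 (adjusted P = 0.258) and 0.39 ± 0.12 (adjusted P = 0.0222).

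Calmodulin is encoded by several genes for the same protein, and of the 2 listed here 1 rose. Calm2 and Calm3 share all 149 residues, yet 78 of 447 coding bases differ, with no identical run longer than 17 bases. Within the coding sequence only such differences could tell their reads apart, and how reads were assigned is not stated in full. The first 120 coding bases of each (GENCODE M21 transcripts) are shown, with the 18 differing bases in capitals.
Calm2: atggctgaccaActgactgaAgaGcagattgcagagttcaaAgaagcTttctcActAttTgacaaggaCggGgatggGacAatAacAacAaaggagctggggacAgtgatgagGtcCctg
Calm3: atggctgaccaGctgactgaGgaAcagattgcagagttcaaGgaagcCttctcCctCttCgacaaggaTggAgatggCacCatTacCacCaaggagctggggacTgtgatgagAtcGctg

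Calm3 was at 121, 123 and 127 scaled FPKM in control and 346, 285 and 179 in Al. Calm2 was at 106, 116 and 109 in control and 122, 115 and 116 in Al. Al libraries were all higher for Calm3, the third by least, whereas the ranges of Calm2 overlapped. The log2 fold changes were 1.07 ± 0.22 for Calm3 (adjusted P = 0.00281) and 0.10 ± 0.10 for Calm2 (adjusted P = 0.427). Calm3 was not called in TPM (0.29) or under quantile normalization (0.38). Calm3 over Calm2 was 1.12 ± 0.0573 in control and 2.28 ± 0.664 in Al (SD, n = 3 each, exact two-sided permutation P = 0.1).

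Shares within a family do not depend on a single scaling factor per library, whereas quantile normalization can alter them. In 9 families with more than 1 tested gene, the shares of 19 of 23 genes did not overlap between groups (by level, 68.1% of all genes tested did not), each with the smallest exact two-sided permutation P that 3 against 3 allows (0.1). Shares within a pair of genes mirror each other, so these 19 are not independent. They include the Slc8 pair, in which Slc8a2 could be tested only because it was high in Al, and without that pair the count was 17 of 21. Orai2 took 28.0 ± 1.78% of ORAI FPKM in control and 48.4 ± 2.12% in Al (SD, n = 3 each). The share of Itpr3 among IP3 receptors went from 70.2 ± 2.87% to 82.8 ± 2.67%. In the STIM pair, Stim2 went from 42.6 ± 0.475% to 58.2 ± 4.93%. For Vdac3 the share went from 23.0 ± 0.607% to 11.9 ± 0.433%. Within each of these 4 families the genes that were not called took a larger share in every Al library than in any control library. All called genes of these families were called lower, so a gain of the rest is largely built in by the calls. Among uncalled genes of other families, Cacnb1 and Atp2a2 gained share and Calm2 lost it, without overlap, while Atp2a1 and Cacna1g overlapped.

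**Figure D3:**
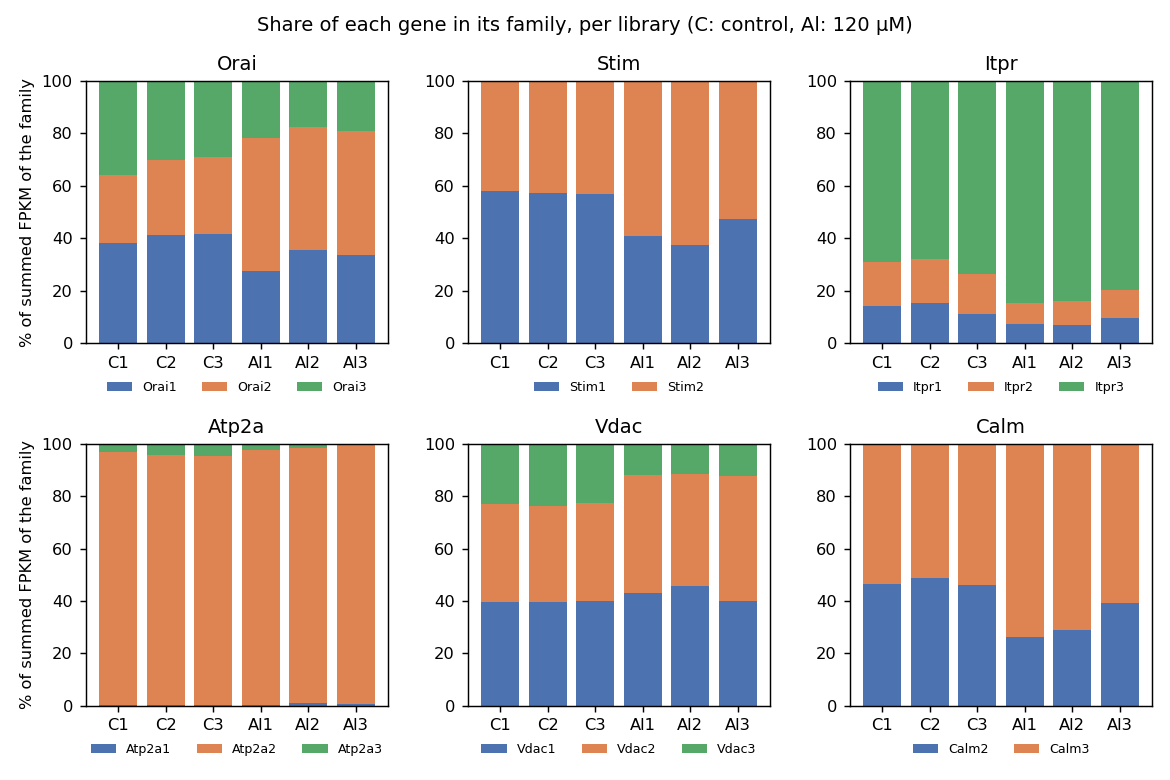
Percent of a family's summed FPKM taken by each tested gene in the 3 control (C) and 3 Al libraries, for 6 families. Orai2, Stim2, Itpr3 and Calm3 take more of the bar in every Al library, and Vdac3 less.

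Scaling sets the level against which these changes are read. Without size factors the median log2 fold change of all genes tested shifted by -0.46 in FPKM as deposited and by -0.75 in TPM. Centring by gene length shifted it by 0.19 and centring by GC content by 0.18. Relative to the median of all genes tested under the same treatment of the values, 19 to 22 of the 30 calcium genes lay below it in 8 such treatments. The number more than 0.58 below it was 14 to 16, and the number more than 0.58 above it 2 to 5. Called lower were 11 of the 30 when centred by length, where 18.4% of all genes tested were lower. In TPM 22 of the 30 were called lower, where 53.1% of all genes tested were. These were the lowest and highest counts of the alternatives run, and the share over all genes moved with them.

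**Figure D4:**
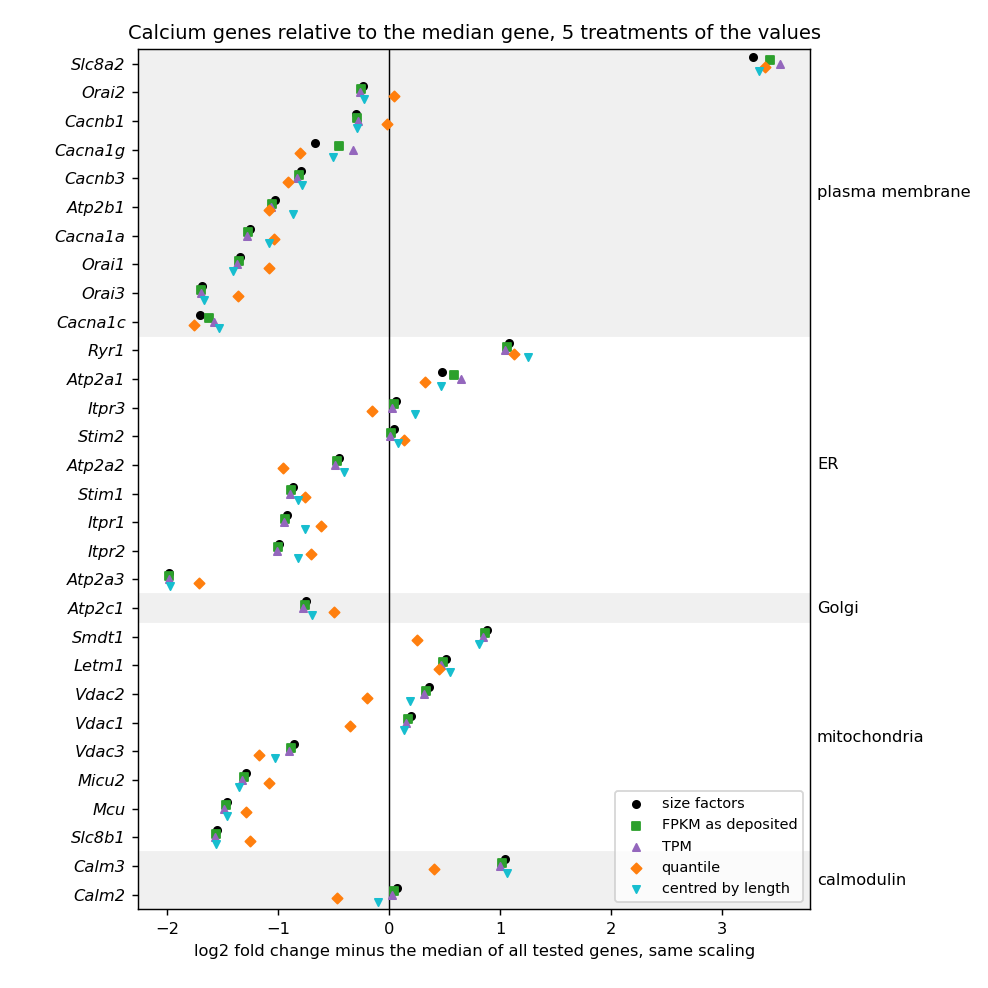
Log2 fold change minus the median of all tested genes, for the 30 calcium genes under 5 of the 8 treatments of the values. Most genes keep their place, while quantile normalization moves Smdt1 and Calm3 toward the median and puts Vdac1, Vdac2, Itpr3 and Calm2 below it.

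Transcript length moved with the fold changes of all genes. Over 10 equal-count bins of length, the median log2 fold change went from 0.45 in the shortest bin to -0.27 in the longest. Of the 15 calcium genes that fell, 6 were in the longest 2 bins, as were 2 of the 4 that rose (Slc8a2 and Ryr1) and 10 of all 30 tested. In these bins 27.9% and 33.3% of all genes tested were called lower. Smdt1, at 585 bases, lies in the shortest bin, where 37.5% of all genes tested were called higher. The part of length in the calls was not tested beyond the centring given above.

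Reads of some members may be shared with other loci, since how reads were assigned is not stated in full. Pseudogene copies with at least 90% identity over 150 bases were found in GENCODE for Atp2b1, Atp2b4, Atp2a2, Vdac2, Vdac3, Slc8b1, Calm2 and Calm3. Exons of Smdt1 overlap Pheta2 on the same strand, and exons of Orai1, Cacna1a, Itpr1, Ryr1 and Atp2c1, among those called, overlap antisense genes. The kit marks strand, but whether counting used it is not stated, so these levels are uncertain.

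Promoters are shown for the 4 genes called higher, to give the sequence at a RefSeq start of each. Whether these genes moved jointly was not tested. Slc8a2 lies at chr7:16129826-16161063, Calm3 at chr7:16915379-16924114, Ryr1 at chr7:29003344-29125179 and Smdt1 at chr15:82338959-82349091 (GENCODE M21, GRCm38). The sequences run from 250 bases before to 50 after a RefSeq start (GRCm38.p6), with capitals for motifs found on either strand. The Smdt1 window lies wholly inside the GENCODE bounds given, downstream of their first base. The general promoter motifs searched were the GC box GGGCGG, the box known by the letters CCAAT and the box known by the letters TATAAA. Sites of inducible factors followed, namely the E-box CACGTG and the cyclic AMP response element TGACGTCA. The metal response element was searched by its core, first in the form TGCACNC and then, with another base inside, in the form TGCGCNC. The NRF-1 palindrome was searched as well.
Slc8a2, chr7:16129576-16129875, plus strand: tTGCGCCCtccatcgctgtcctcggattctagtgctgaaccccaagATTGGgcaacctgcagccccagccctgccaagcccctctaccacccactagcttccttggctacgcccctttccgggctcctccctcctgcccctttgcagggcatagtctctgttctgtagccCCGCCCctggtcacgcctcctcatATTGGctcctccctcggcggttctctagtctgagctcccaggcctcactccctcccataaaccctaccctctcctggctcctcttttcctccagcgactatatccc
Calm3, chr7:16923983-16924282, minus strand: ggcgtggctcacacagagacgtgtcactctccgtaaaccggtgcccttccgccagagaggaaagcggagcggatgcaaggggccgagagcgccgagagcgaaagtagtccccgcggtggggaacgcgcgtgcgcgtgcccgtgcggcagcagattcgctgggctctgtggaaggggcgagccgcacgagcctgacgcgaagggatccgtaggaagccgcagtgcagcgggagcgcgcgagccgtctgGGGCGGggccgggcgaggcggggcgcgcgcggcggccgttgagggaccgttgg
Ryr1, chr7:29125102-29125401, minus strand: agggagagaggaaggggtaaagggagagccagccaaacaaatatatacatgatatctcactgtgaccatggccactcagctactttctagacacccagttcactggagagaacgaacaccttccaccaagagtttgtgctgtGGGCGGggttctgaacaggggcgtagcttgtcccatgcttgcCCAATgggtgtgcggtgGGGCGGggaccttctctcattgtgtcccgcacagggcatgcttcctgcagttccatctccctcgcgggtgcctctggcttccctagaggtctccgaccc
Smdt1, chr15:82345796-82346095, plus strand: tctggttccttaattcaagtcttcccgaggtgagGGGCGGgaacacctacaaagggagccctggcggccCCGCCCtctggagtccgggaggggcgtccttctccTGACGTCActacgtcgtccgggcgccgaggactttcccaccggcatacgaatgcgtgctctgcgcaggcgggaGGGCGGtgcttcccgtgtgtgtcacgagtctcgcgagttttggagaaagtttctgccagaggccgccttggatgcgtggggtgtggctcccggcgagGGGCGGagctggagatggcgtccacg

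All 4 windows hold a GC box, which 35.6% of 32817 RefSeq promoters of this length hold. Counted the same way, 26 of the 37 promoters of members hold it. By gene, with any promoter counted, it was in 23 of the 28 members with a RefSeq promoter and in 10 of the 11 such genes that fell. Smdt1 has 4 of them and the cyclic AMP response element (in 1.79% of promoters). CCAAT is in Slc8a2 and Ryr1 (37.4%), and TGCGCNC is in Slc8a2 alone (15.4%). The E-box (7.15%), TGCACNC (12.6%), the NRF-1 palindrome (0.966%) and TATAAA (13.6%) are in none of the 4 windows. These matches describe the letters of the windows only.

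The 9 members that were not tested were Atp2b2, Atp2b3, Atp2b4, Slc8a1, Slc8a3, Cacna1b, Cacna1h, Ryr2 and Ryr3, each with a mean under 0.1 FPKM. They had 0 to 79 reads per library, and a library with 0 reads allows an expected count of up to 3.

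Beyond these genes, a wider list of 170 names in calcium handling had 164 in the table and 102 tested. Of these 22 rose (21.6%, against 26.2% of all genes tested) and 36 fell (35.3%, against 24.4%), with a median log2 fold change of -0.34. Both counts moved with the scaling, as did the shares of all genes, and these are given further below. The counts of its groups are small and are given as descriptions beside the same shares of all genes. Enzymes that make or use IP3 had 8 falls and 1 rise among 11. There Plcg1, a phospholipase C, went from 26.5, 25.8 and 24.5 scaled FPKM to 9.66, 11.01 and 12.2 (log2 fold change -1.22, adjusted P = 3.7e-05). Calmodulin and its targets had 14 falls and 4 rises among 28. Mylk, myosin light chain kinase, went from 5.28, 5.11 and 3.38 to 0.774, 0.698 and 0.853 (-2.40, adjusted P = 3.52e-05), and Ppp3r1, the calcineurin regulatory subunit, rose by 0.72 (adjusted P = 0.000166).

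Genes of the ER and Golgi lumen and membrane had 9 rises and 2 falls among 22. Itprip, which binds IP3 receptors, went from 21.1, 19.8 and 21.9 scaled FPKM to 55.8, 60.1 and 68.6 (log2 fold change 1.55, adjusted P = 1.38e-05), while Tmem165 of the Golgi fell (-0.99, adjusted P = 9.52e-05). Other entry channels had 2 rises and 7 falls among 17, and the ATP-gated channels parted, with P2rx5 at 1.81 (adjusted P = 3.09e-05) and P2rx4 at -1.84 (adjusted P = 8.06e-05). Among 5 regulators of store-operated entry, Pdia3 rose (1.30, adjusted P = 4.95e-05) with 1 other gene and Tmem110, which aids STIM1, fell (-1.20, adjusted P = 0.00194). Of 9 other mitochondrial calcium genes, Mcl1 rose (0.81, adjusted P = 0.00011) and 2 fell, Mcur1 by the larger amount (-0.82, adjusted P = 0.00334). Further voltage-gated channel subunits had 2 rises and 1 fall among 4, with Gem at 1.17 (adjusted P = 4.74e-05) and Cacng7 at -0.82 (adjusted P = 0.0204). Bsg, a partner of the plasma membrane pumps, rose by 1.61 (adjusted P = 0.000287) among 4 pump and exchanger partners, of which 1 fell. Both cytosolic calcium buffers tested were below control but not called.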

How the data were processed

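RNA abundance was measured in 6 input libraries of a MeRIP-seq of HT22 cells. The authors removed adapters with Trimmomatic and rRNA with SortMeRNA, aligned to GRCm38 with HISAT2 and deposited 1 FPKM value per gene and library; the submitters' processing notes name fastp, HISAT2, HTSeq and GRCm39 instead. DESeq2, which the study used, was not run here: the deposited values are FPKM, and the recovered reads below served for depths, lengths, voom and thinning.

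FPKM was divided by median-of-ratios size factors (0.802 to 1.21), and log2(scaled FPKM + 0.1) was fitted with limma 3.58.1 (lmFit, eBayes with trend; R 4.3.3) over 12889 genes with a mean of at least 0.1 FPKM. Fold changes of low genes are understated on this scale. Whole reads were recovered from the steps of the FPKM values for 17688 of 17688 genes above 0, and 99.9% gave a gene length within 0.02 bases of a whole number, for 821 genes only after their reads were multiplied to make it whole. In simulation, 96.2% of genes got exact reads. The fit and the recovery were tested on simulated data. The study describes the 3 libraries of a group as biological replicates, but whether they came from separate cultures is not stated, so P values measure the spread between these libraries.

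All 39 members are accounted for. In the wider list, the called gene with the largest rise and fall in each sub-list was named (mean of at least 1 FPKM, adjusted P under 0.05). Members and lists were chosen with earlier results of these data known, and the ratios and sums of genes were chosen after their values were seen. Alternatives covered scaling, pseudocount, filter, trend, replicate block, each library left out, adjusted P, voom on recovered reads, thinning and gene length. Centring by GC content and a changed form of the length centring were added after the data were seen.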

Additional observations from a re-analysis of the deposited data

How the results depend on the processing

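No called calcium gene changed sign in the 22 alternatives run, and 11 of the 19 kept their call in each alternative that tested them. The other 8 each lost it at least once: Smdt1, Calm3, Ryr1, Atp2c1, Cacna1a, Cacnb3, Itpr1 and Vdac3. The cause was not tested. After the data were seen, centring by GC content was added, as was a centring of deviations from each gene's mean by length and by GC content; the deviation form for length was written after the planned length centring had been seen, and both are given. Higher calls were 4, and 1 in TPM and 2 under quantile normalization; in the wider list they were 9 and 13, with 61 falls in TPM and 23 when centred by GC content. Shares over all genes moved too: in TPM 9.31% were higher and 53.1% lower, under quantile normalization 22.2% higher, and centred by GC content 19.0% lower. The median log2 fold change of the calcium genes was -1.05 in FPKM as deposited, -1.35 in TPM, -0.52 with a pseudocount of 1, -0.75 with 0.01, -0.74 at a mean of at least 1 FPKM, -0.78 by voom, -0.70 on thinned reads, -0.38 centred by gene length, -0.33 centred by GC content, and -0.50 and -0.65 with deviations centred by length and GC content. Leaving out each library in turn gave -0.73 to -0.63.

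Genes that were not called changed sign as follows. In FPKM as deposited, Itpr3 was at -0.39, Stim2 at -0.41, Vdac1 at -0.26, Vdac2 at -0.10 and Calm2 at -0.39. In TPM, Atp2a1 was at -0.065, Itpr3 at -0.69, Stim2 at -0.71, Letm1 at -0.24, Vdac1 at -0.56, Vdac2 at -0.40 and Calm2 at -0.69. Of these, Itpr3, Stim2 and Calm2 were called lower in TPM, where 53.1% of all genes tested were. Atp2a2, Orai2, Cacnb1 and Cacna1g were also called lower there, without a change of sign. Under quantile normalization, Orai2 was at 0.017, Itpr3 at -0.18, Vdac1 at -0.38, Vdac2 at -0.23 and Calm2 at -0.50. Centred by GC content, Orai2 was at 0.091 and Cacnb1 at 0.14; Calm2 was at -0.13 with deviations centred by length, and Itpr3 at -0.019 without the second control library (0.18 without the third).

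With the replicate number as a block, 4 calcium genes were called higher and 15 lower, as without it. Same-numbered libraries did not deviate together (correlations of deviations -0.033, -0.026 and -0.073), and different-numbered ones ranged from -0.057 to 0.076. These values cannot show whether the cultures were handled in pairs. Among the genes not called, Cacna1g had 5 to 114 and Atp2a1 8 to 54 reads per library, the lowest depths of the genes tested; the part of depth in their spread was not tested.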

Other observations

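Of the 4 calcium genes that rose, 3 lie on chromosome 7 (Slc8a2, Calm3 and Ryr1), as do 2 of the 15 that fell. Among them, Slc8a2 could be tested only because it was high in Al. In the stretch from 16129826 to 29125179 that holds the 3 risen genes, chosen after their values were seen, 30.5% of 174 tested genes were called higher. Of the other tested genes, 26.1% were. The 3 genes set its bounds and are counted in it, and without them 29.2% of 171 were called higher. Lower calls were 19.0% in the stretch and 24.5% elsewhere, and the median log2 fold change was 0.22 against 0.03.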
